A study of Oryza sativa Japonica Group with 9 samples.

Results

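Os02g0668500, Os02g0822900 and Os08g0140500 are 3 rice genes whose root transcripts were lower with nitrogen (N) deficiency and higher with phosphorus (P) deficiency than in control roots. They were taken by locus ID from 34285 genes present in both deposited tables, and they had been chosen by the measured fold changes of these same comparisons, lower in one and higher in the other. Their levels and fold changes are therefore given as descriptions without a test. RNA sequencing had been run on roots of Oryza sativa Japonica Group, cultivar Nipponbare, the cultivar of the usual rice reference genome. There were 3 libraries of control roots (labelled CK), 3 of N deficiency and 3 of P deficiency, which the design text calls biological replicates. What a replicate was, a plant or a pool, is not stated. The labels give no plant age, no length of treatment, no nutrient concentration and no transgene, so the groups differed only in the nutrient treatment as far as the labels say. The same 3 control libraries serve both deficiencies.

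The genes encode proteins of unrelated kinds, as far as the deposited protein domains show. Os02g0668500 carries a divergent CRAL/TRIO domain, a relative of the fold with which yeast Sec14 and human retinal-binding and tocopherol-transfer proteins hold a lipid. Os02g0822900 carries a U-box, the part of a ubiquitin ligase that receives the ubiquitin-loaded E2 enzyme, together with a protein kinase domain. Os08g0140500 carries the pyridoxal-dependent decarboxylase conserved domain of enzymes that use vitamin B6 to turn an amino acid into an amine, among them glutamate, tyrosine and tryptophan decarboxylases. The tables do not name its substrate.

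Nitrogen and phosphate responses are wired together in rice roots. Phosphate starvation genes are switched on by PHR factors, which SPX proteins hold back while phosphate is plentiful. Nitrate sensed through NRT1.1B leads to the breakdown of SPX4, so that nitrate supply promotes the phosphate response.

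Reads on genes ranged from 17931041 to 22752492 per library. The hand-listed root markers Os02g0662000, Os02g0745100 and Os03g0107300, with hydrophobic seed protein, major intrinsic protein and citrate transporter domains, had at least 39644, 21383 and 25020 reads in each of the 9 libraries. Markers of shoot tissue (39 chlorophyll-binding and photosystem genes) moved with N deficiency, with 29 lower and 0 higher (limma; 0 higher also at an unadjusted p under 0.05, with edgeR and with DESeq2). Of all genes tested, 5.94% were called lower and 6.9% higher with N deficiency. With P deficiency 1 of the 39 was lower and 0 higher by limma, and 5 were lower and 0 higher by DESeq2. At an unadjusted p under 0.05 in limma, 7 were lower and 0 higher. Among all genes there, 2.7% were called lower and 3.58% higher. Median log2 changes of the markers were -1.58 with N and -0.55 with P deficiency. The summed level of the markers was 1311 to 3482 CPM (reads scaled to a fixed total of reads on genes) in control. It was 401 to 588 with N deficiency and 967 to 1463 with P deficiency. Of the 39, 2 had no read in at least 1 group. P library 3 stood apart from its replicates, where chi-square over its degrees of freedom was 45.4 and 53.2 against P libraries 1 and 2, and 9.57 between those. Control library 3 (23.5 and 25, against 8.75 between the other controls) and N library 2 (23.6 and 26.4, against 15.0) also lay apart, by less, and control library 3 had the highest shoot marker sum. Below, the members' fold changes are also given without these libraries. A call of a named gene printed below that was lost or gained without 1 of them is marked so. The part of the shoot markers in the results was not tested. In bulk roots, fewer cells of a type and less RNA per cell cannot be told apart.

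Os02g0668500 was the member with the widest range. Levels here are reads rescaled with 1 set of size factors over the 9 libraries. It stood at 887, 611 and 503 in control libraries 1, 2 and 3, at 97.2, 106 and 183 in N libraries 1, 2 and 3, and at 4676, 4406 and 5872 in P libraries 1, 2 and 3. Every N library lay below every control library, and every P library lay above them. The group means were 667 ± 198 in control, 129 ± 47.0 with N deficiency and 4985 ± 780.1 with P deficiency (SD, n = 3). On the log2(value + 1) scale, fitted within each deposited table, the difference from control was -2.38 ± 0.274 with N deficiency and 2.93 ± 0.217 with P deficiency (SE). N and P deficiency, fitted over the 9 libraries, differed by -5.31 ± 0.260 on that scale. Its P libraries rested on 3953 to 6183 reads and its N libraries on 105 to 192.

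Os02g0822900, with a U-box and a kinase domain, followed the same order at lower levels. It stood at 341, 266 and 356 rescaled reads in control libraries 1, 2 and 3. N libraries 1, 2 and 3 had 121, 78.1 and 99.9, and P libraries 1, 2 and 3 had 1913, 2119 and 1333. The groups did not overlap, and P library 3 was the lowest of its group. Means were 321 ± 47.8 in control, 99.8 ± 21.6 with N deficiency and 1788 ± 407 with P deficiency (SD, n = 3). The log2 difference from control was -1.68 ± 0.192 with N deficiency and 2.46 ± 0.190 with P deficiency, and N minus P deficiency was -4.15 ± 0.209 (SE).

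Os08g0140500, the decarboxylase-domain gene, was the member whose difference from control was larger with N than with P deficiency. Control libraries 1, 2 and 3 had 172, 226 and 248 rescaled reads, N libraries 54.6, 46.5 and 41.9, and P libraries 682, 638 and 662. Relative to their mean, the P libraries lay closest together of any group of any member (coefficient of variation 3.37%). Means were 215 ± 39.1 in control, 47.7 ± 6.47 with N deficiency and 661 ± 22.2 with P deficiency (SD, n = 3). The log2 difference from control was -2.14 ± 0.195 with N deficiency and 1.63 ± 0.146 with P deficiency, and N minus P deficiency was -3.77 ± 0.160 (SE). The N values rested on 44 to 59 reads per library, the fewest among the members.

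**Figure D1:**
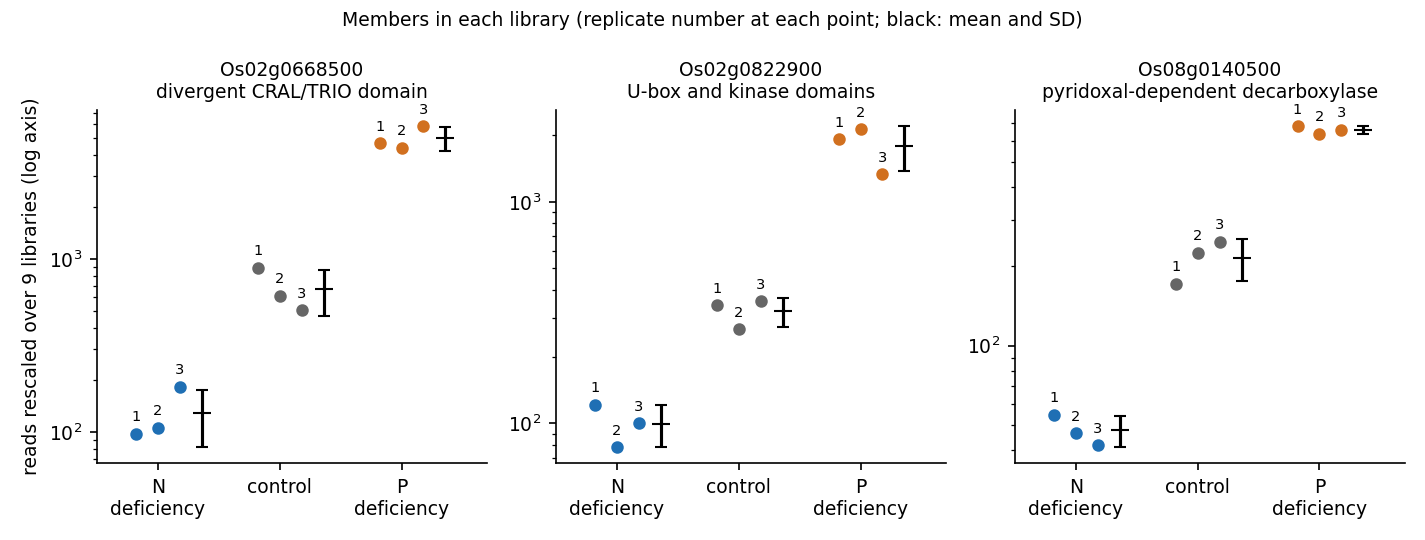
Level of each member in each of the 9 libraries, in reads rescaled over the 9 libraries on a log axis; numbers are replicates and the black bar is the group mean with its SD (n = 3). For each member the 3 N libraries lie below the 3 control libraries and the 3 P libraries above them, as for Os02g0668500 with at most 183 in N, 503 to 887 in control and at least 4406 in P.

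The distance between groups differed among the members. For Os02g0668500 the lowest control library was 2.76 times the highest N library, and the lowest P library 4.97 times the highest control library. The same ratios were 2.20 and 3.75 for Os02g0822900. They were 3.15 and 2.57 for Os08g0140500. Mean P over mean N came to 38.8 for the CRAL/TRIO gene, 17.9 for the U-box kinase gene and 13.9 for the decarboxylase-domain gene. Without P library 3 the log2 difference from control with P deficiency was 2.80 for Os02g0668500, 2.65 for Os02g0822900 and 1.62 for Os08g0140500. Without control library 3 it was 2.74, 2.53 and 1.74, and that with N deficiency was -2.56, -1.60 and -2.03. Without N library 2 the difference with N deficiency was -2.27, -1.52 and -2.13. The authors' deposited table gives log2 fold changes close to those above, -2.37 and 2.90 for Os02g0668500, -1.68 and 2.48 for Os02g0822900, and -2.17 and 1.62 for Os08g0140500, for N and P deficiency in turn.

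Spread between replicates also differed. The coefficient of variation of Os02g0668500 was 29.6% in control, 36.6% with N deficiency and 15.7% with P deficiency, against 3.88%, 8.62% and 1.44% from counting alone. For Os02g0822900 it was 14.9%, 21.6% and 22.8%, with 5.54%, 9.76% and 2.43% from counting. Os08g0140500 varied by 18.2% in control, where counting gives 6.71%. Its 13.6% with N deficiency and 3.37% with P deficiency were no larger than the 14.1% and 3.97% that counting gives.

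Deviations from the group mean shared a sign across all members only in N library 2. They were -0.22, -0.33 and -0.03 on the log2 scale for Os02g0668500, Os02g0822900 and Os08g0140500. For Os08g0140500 the spread with N and with P deficiency was no larger than counting gives, so its deviations there may be counting error. Shared deviation was not tested. Control library 3 and N library 1 were high for both Os02g0822900 (0.16 and 0.30) and Os08g0140500 (0.22 and 0.20). Control library 1 was high for Os02g0668500, by 0.45 on the log2 scale, and low for Os08g0140500, by -0.31. N library 3 was high for Os02g0668500, by 0.56, and low for Os08g0140500, by -0.17. P library 3 was high for Os02g0668500, by 0.25, low for Os02g0822900, by -0.40, and near the mean for Os08g0140500, at 0.0029.

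Set against gene model length, the members were unlike in abundance. As RPKM (reads per kilobase of gene model, scaled to the reads on genes of the library), Os02g0668500 had 31.4 ± 9.44 in control, 5.91 ± 1.97 with N deficiency and 223 ± 46.5 with P deficiency (SD, n = 3). That mean lay above 85.8% of genes in control, 56.2% with N deficiency and 98.6% with P deficiency. On this per-length scale, Os02g0822900 had 5.17 ± 0.682, 1.59 ± 0.372 and 27.2 ± 5.13 in the same order of groups, and Os08g0140500 had 6.78 ± 1.19, 1.49 ± 0.247 and 19.8 ± 1.17. The RPKM ranges of these 2 genes overlapped in control, at 4.39 to 5.63 and 5.43 to 7.66, and with N deficiency, at 1.25 to 1.99 and 1.26 to 1.75. They did not overlap with P deficiency, at 21.6 to 31.7 for Os02g0822900 and 18.6 to 21.0 for Os08g0140500, and Os02g0668500 lay above both at 191 to 277.

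Among the genes tested, 34 of 32012 were called both lower with N deficiency and higher with P deficiency (limma, Benjamini-Hochberg adjusted p under 0.05 in each), which is 0.106%. The members are among those 34 because they were chosen from these calls, so nothing is read from it. Calls lower with N deficiency made up 5.94% of genes tested and calls higher with P deficiency 3.58%. In either direction, 12.8% were called with N and 6.28% with P deficiency. The reverse pattern, higher with N and lower with P deficiency, was called in 10 genes, or 0.0312%. Since both calls use the same control libraries, the overlap itself was not tested. Ranked by the smaller of the 2 absolute log2 changes, Os02g0668500 was placed 2 of 34, Os02g0822900 7 and Os08g0140500 8, with that smaller change at 2.38, 1.68 and 1.63. The next genes were Os07g0129300 (1.56), Os01g0924966 (1.53) and Os05g0542150 (1.46). That count fell to 13, 15 and 20 without control library 1, 2 or 3 and to 21 and 22 without P library 1 or 2, and DESeq2 gave 53.

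Non-overlap is a looser measure. All 3 N libraries lay below all 3 control libraries in 15% of genes tested, and all 3 P libraries above them in 13.3%. The full order, with N below control and control below P in all 9 libraries, held in 148 genes or 0.462%. By size of change, Os02g0668500 was placed 225 of 1940 genes called lower with N deficiency and 89 of 1166 called higher with P deficiency. Os02g0822900 was placed 597 and 140, and Os08g0140500 330 and 309, in the same lists. In N against P deficiency they were placed 24, 48 and 65 of 788 genes called lower. Those 788 were 2.45% of genes tested, while 1.43% were called higher and 3.88% in either direction. The choice of members fixes their direction in each of these lists, so the places describe size of change only and are no test.

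**Figure D2:**
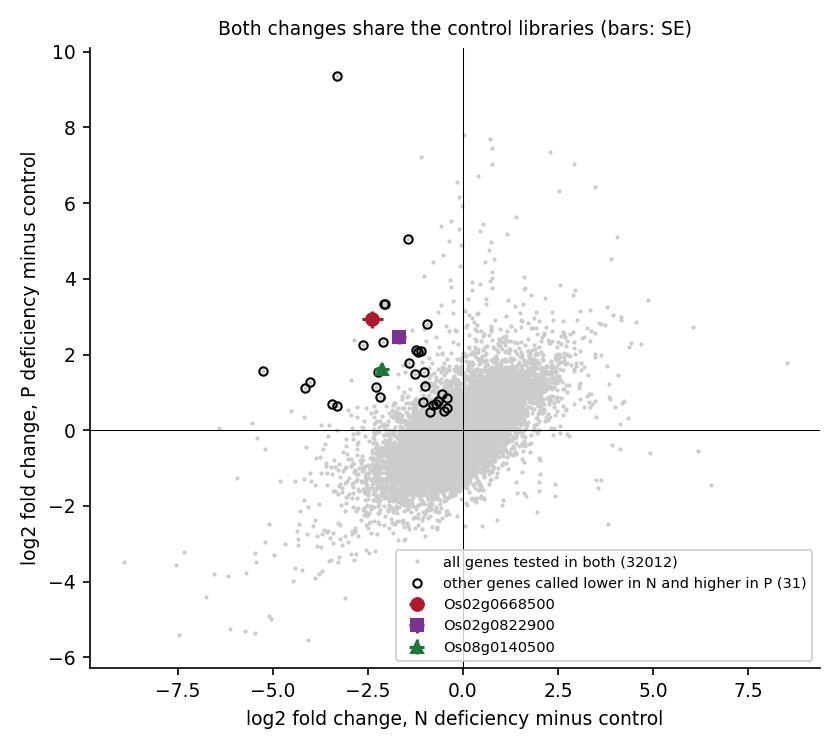
Log2 fold change with N deficiency (x axis) and with P deficiency (y axis) against the same control libraries for 32012 genes tested in both (grey), with 31 other genes called lower in N and higher in P (open circles) and the members (coloured, bars are SE). The members lie in the upper left at -2.38 and 2.93, -1.68 and 2.46, and -2.14 and 1.63.

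Genes of like pattern were sought by the root-mean-square (RMS) difference between log2(value + 1) profiles over the 9 libraries, each centred on its own mean, among 25836 other genes with at least 10 rescaled reads on average. This is a description of the 9 libraries and carries no test. The closest to Os02g0668500 was Os02g0325600, with a Myb-like DNA-binding domain, at an RMS difference of 0.44, where the member's own spread was 2.20. Os02g0325600 stood at 123, 124 and 157 rescaled reads in control, 25.9, 37.6 and 29.5 with N deficiency and 1467, 1346 and 1293 with P deficiency. Its groups kept the same order as the member's and did not overlap, which a search for the closest profile largely fixes. Every gene named as closest to a member is also among the 34 called lower with N and higher with P deficiency. The other two were Os03g0734000, which has no deposited domain (0.53), and a gene model on chromosome 11, 14247659 to 14250869, with mitochondrial carrier and PDDEXK-like domains (0.63).

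Os02g0822900 was closest to Os04g0186400, with a sugar transporter domain, at 0.32. Then came Os03g0734000 at 0.37 and Os09g0564400, with a papain family cysteine protease domain, at 0.41. The calls of Os04g0186400 and Os09g0564400 with N deficiency were lost without any 1 control library or N library 2 or 3. That of Os09g0564400 was also lost with edgeR under both scalings and with a pseudocount of 0.1. The papain-domain gene was abundant, at 2399, 2811 and 3558 rescaled reads in control, 1992, 700.3 and 1276 with N deficiency and 14608, 15846 and 8605 with P deficiency. As in Os02g0822900, P library 3 was its lowest P library and N library 2 its lowest N library, a likeness that the search favours.

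For Os08g0140500 the closest were Os01g0924966, with an auxin responsive protein domain, at 0.34, Os01g0621900, with no deposited domain, at 0.37, and Os03g0734000 at 0.39. The call of Os01g0621900 with P deficiency was lost without control library 1 or 2 or P library 1 or 2 (adjusted p up to 0.124 by limma and Benjamini-Hochberg). Os03g0734000 was thus among the 3 closest to each member. It had 71.9, 85.0 and 76.1 rescaled reads in control, 18.5, 16.8 and 16.2 with N deficiency, and 304, 453 and 450.1 with P deficiency. Between members, the RMS difference was 0.44 for Os02g0822900 and Os08g0140500, 0.66 for Os02g0668500 and Os02g0822900, and 0.82 for Os02g0668500 and Os08g0140500.

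**Figure D3:**
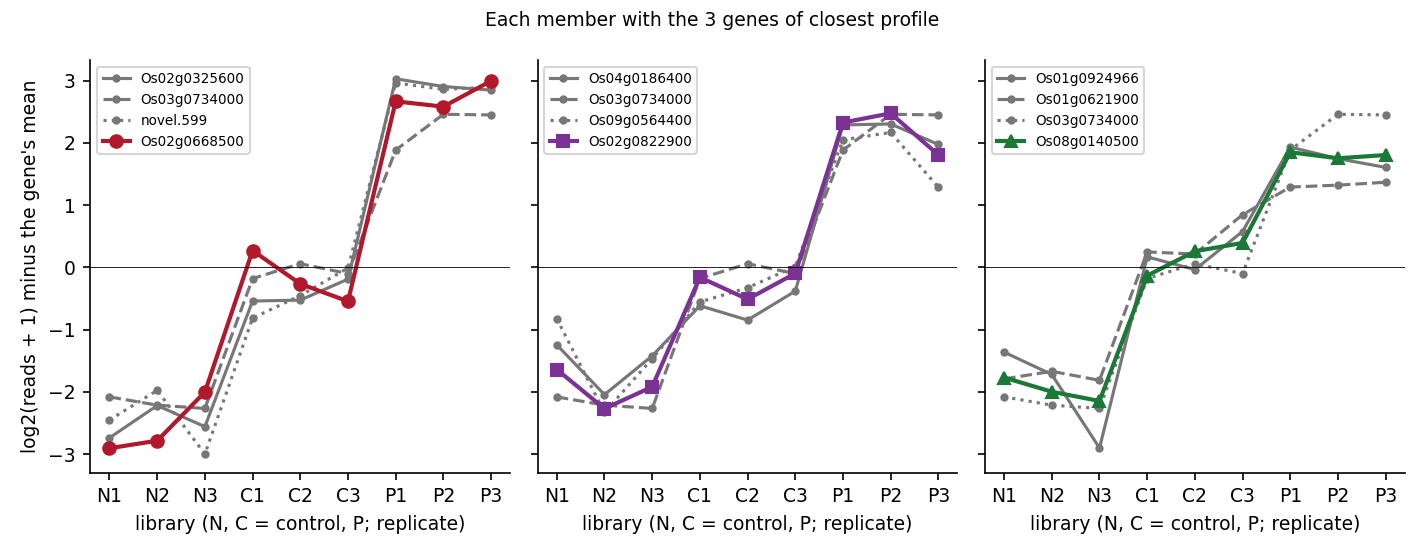
Centred log2(reads + 1) of each member (coloured) and of the 3 genes with the closest profile (grey) in the N, control (C) and P libraries. The closest gene differs from its member by an RMS of 0.44, 0.32 and 0.34. Each line steps up from N to control to P, which the search for close profiles largely fixes.

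Relatives of the CRAL/TRIO member were the 31 other genes with a CRAL/TRIO domain. With N deficiency 4 of 31 tested rose and 1 fell, and with P deficiency 3 of 30 rose and none fell (limma; 0 lower also with edgeR and DESeq2, and 1 lower at an unadjusted p under 0.05). Over all genes, 6.9% were called higher and 5.94% lower with N deficiency, and 3.58% and 2.7% with P deficiency. The median log2 change of the relatives was 0.17 and 0.15 with N and P deficiency, where that of all genes tested was -0.01 and 0.00. Os06g0607200 rose from 378 ± 61.1 to 705 ± 65.8 normalised reads with P deficiency, or 0.91 ± 0.143 in log2 units (adjusted p = 0.013 by limma and Benjamini-Hochberg), and N minus P deficiency was -0.74 ± 0.132 (adjusted p = 0.013 by limma and Benjamini-Hochberg). The first call was lost without control library 1 or P library 1 and the second without N library 3 (adjusted p up to 0.0613 and 0.0625). Its change with N deficiency was 0.17 ± 0.138 and did not pass (adjusted p = 0.50 by limma and Benjamini-Hochberg).

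The remaining relatives that passed moved by less than 1 on the log2 scale, save one. With N deficiency, Os03g0850700, Os03g0219100 and Os01g0926800 rose by 0.87, 0.73 and 0.47 and Os02g0752000 fell by 0.41. Leaving out 1 library could end each of these calls (highest adjusted p 0.127, 0.128, 0.116 and 0.0676). For Os03g0850700 and Os03g0219100 these were control libraries 2 and 3 and N libraries 2 and 3. For Os01g0926800 they were all 3 control libraries and N libraries 1 and 3, and for Os02g0752000 control libraries 1 and 2 and N library 1. Os03g0850700 also rose with P deficiency, by 0.77, a call lost without control library 2 or 3 or any 1 P library, with edgeR and with a pseudocount of 0.1 (adjusted p up to 0.16).

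The exception shares the divergent form of the domain. The tables hold 4 such genes, and of the 3 besides the member Os04g0561200 (chromosome 4, 28096346 to 28097626) rose with P deficiency. It is a gene of few reads, with 3, 1 and 1 in control libraries 1, 2 and 3, 0, 0 and 1 in the N libraries and 15, 10 and 20 in the P libraries. The ratio of P to control reads was 9.55 (95% counting interval 3.8 to 30.8), and the rise passed (adjusted p = 0.021 by limma and Benjamini-Hochberg), though not without control library 2 or 3 or P library 1 (up to 0.0908). The ratio of P to N reads was 49.1 with a counting interval of 8.38 to 1983. Its N and control libraries overlapped. The other two, Os01g0948300 and Os10g0444400, which has a macro domain as well, changed by 0.20 and -0.03 with N deficiency and 0.05 and -0.01 with P deficiency, and neither passed (adjusted p from 0.30 to 0.97 by limma and Benjamini-Hochberg).

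Relatives of the U-box member were the 63 other U-box genes. With N deficiency 3 of 62 tested rose and none fell (limma; 0 lower also with edgeR and DESeq2, 3 lower at an unadjusted p under 0.05). With P deficiency 6 of 63 rose and none fell (limma; 0 lower with edgeR, 2 with DESeq2, 4 at an unadjusted p under 0.05). Of all genes tested, 6.9% were called higher and 5.94% lower with N deficiency, and 3.58% and 2.7% with P deficiency. Median log2 changes were 0.14 and 0.02, and the latter was the same with the gene of no control reads at its bound. In N against P deficiency 6 were lower and none higher (limma; 1 or 0 higher with edgeR, 3 with DESeq2, 11 at an unadjusted p under 0.05). There, 2.45% of all genes were called lower and 1.43% higher.

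A kinase domain beside the U-box is found in 13 of the 64. Of the 12 besides the member, 3 rose with P deficiency and none passed with N deficiency (limma; 1 higher with edgeR and with DESeq2, and 3 higher and 1 lower at an unadjusted p under 0.05). For all genes, 3.58% rose with P deficiency and 12.8% passed with N deficiency in either direction. Os09g0569800 had 50.6, 43.5 and 48.9 rescaled reads in control, 93.5, 66.3 and 79.9 with N deficiency and 358, 368 and 233 with P deficiency. Its libraries were thus lowest in control. It rose with P deficiency by 2.69 ± 0.206 in log2 units (adjusted p = 6.6e-04 by limma and Benjamini-Hochberg). Its difference with N deficiency was 0.73 ± 0.203 and missed the threshold (adjusted p = 0.051 by limma and Benjamini-Hochberg), although it passed with edgeR and DESeq2. The difference also passed without N library 2, with a pseudocount of 0.1 and with a filter at a mean of 10.

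Os10g0100500, another U-box kinase gene, stood at 813, 747 and 806 rescaled reads in control, 920, 808 and 877 with N deficiency and 2983, 2542 and 1962 with P deficiency. The P libraries lay apart and the others overlapped. It rose with P deficiency by 1.64 ± 0.152 (adjusted p = 0.0015 by limma and Benjamini-Hochberg) and did not pass with N deficiency, at 0.14 ± 0.0942 (adjusted p = 0.41 by limma and Benjamini-Hochberg). In both genes, as in the member, P library 3 was the lowest P library.

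Among U-box genes without a kinase domain, Os04g0584500 had no read in control, 2 over the N libraries and 26, 41 and 24 in P libraries 1, 2 and 3. It was at least 32.2-fold higher with P deficiency where the 3 control libraries together are set at a floor of 3 reads (adjusted p = 7.0e-04 by limma and Benjamini-Hochberg). Os10g0548850 rose with P deficiency from 61.2 ± 9.78 to 166 ± 43.1 normalised reads (adjusted p = 0.013 by limma and Benjamini-Hochberg), a call lost without control library 1 or 2 (up to 0.0669). The genes that rose with N deficiency were Os01g0884400, by 0.71, Os06g0275700, by 0.54, and a gene model on chromosome 8, 2194931 to 2197578, by 0.60. Leaving out either of control libraries 1 and 2 ended each of these calls (highest adjusted p 0.0825, 0.0585 and 0.131). The same held for Os01g0884400 with N libraries 2 and 3, and for the chromosome 8 model with those and control library 3.

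Relatives of the decarboxylase member were 14 other genes with the same domain. With N deficiency 1 of 13 tested rose and 3 fell, and with P deficiency 1 fell and none rose (limma; 0 higher also with edgeR and DESeq2, 1 at an unadjusted p under 0.05). The shares of all genes called higher and lower were 6.9% and 5.94% with N deficiency, and 3.58% and 2.7% with P deficiency. Median log2 changes of these relatives were 0.19 and 0.16. The gene that fell with both deficiencies was Os02g0541325, which went from 1750 ± 260.3 to 926 ± 50.5 normalised reads with N deficiency (adjusted p = 0.0023 by limma and Benjamini-Hochberg) and from 1671 ± 256 to 685 ± 80.3 with P deficiency (adjusted p = 0.0034 by limma and Benjamini-Hochberg). Os03g0236200 fell with N deficiency from 2562 ± 760.1 to 1041 ± 287 (adjusted p = 0.010 by limma and Benjamini-Hochberg) and stood at 2733 ± 1268 with P deficiency, against 2442 ± 708 in control on that table's scale, without passing (adjusted p = 0.89 by limma and Benjamini-Hochberg). The gene that rose, Os10g0400500, had few reads, 5, 1 and 1 in control and 22, 22 and 29 with N deficiency. The ratio of N to control reads was 10.1 (95% counting interval 4.68 to 26.1), and the rise passed (adjusted p = 0.0069 by limma and Benjamini-Hochberg).

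The third that fell with N deficiency was Os08g0140300, the nearest gene model to the member. The pair lie on opposite strands of chromosome 8 with 11028 bases between them. Os08g0140300 had 135, 111 and 206 rescaled reads in control, 56.5, 28.7 and 40.9 with N deficiency and 168, 133 and 295 with P deficiency. Its N libraries lay below all others, and its P and control libraries overlapped. The log2 fold change was -1.82 ± 0.306 with N deficiency (adjusted p = 0.0058 by limma and Benjamini-Hochberg) and 0.36 ± 0.335 with P deficiency, which did not pass (adjusted p = 0.59 by limma and Benjamini-Hochberg). N minus P deficiency was -2.18 ± 0.348 (adjusted p = 0.0065 by limma and Benjamini-Hochberg). Per length, the ratio of Os08g0140500 to Os08g0140300 reads was 1.51, 2.40 and 1.43 in control, 1.15, 1.92 and 1.21 with N deficiency and 4.82, 5.71 and 2.66 with P deficiency. The ratio was highest in the P libraries, which the choice of Os08g0140500 for a rise with P deficiency favours. The lowest P value, 2.66 in P library 3, lay near the 2.40 of control library 2. Reads that both genes could share cannot be told apart here, since no source used here says how the counter treated them.

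**Figure D4:**
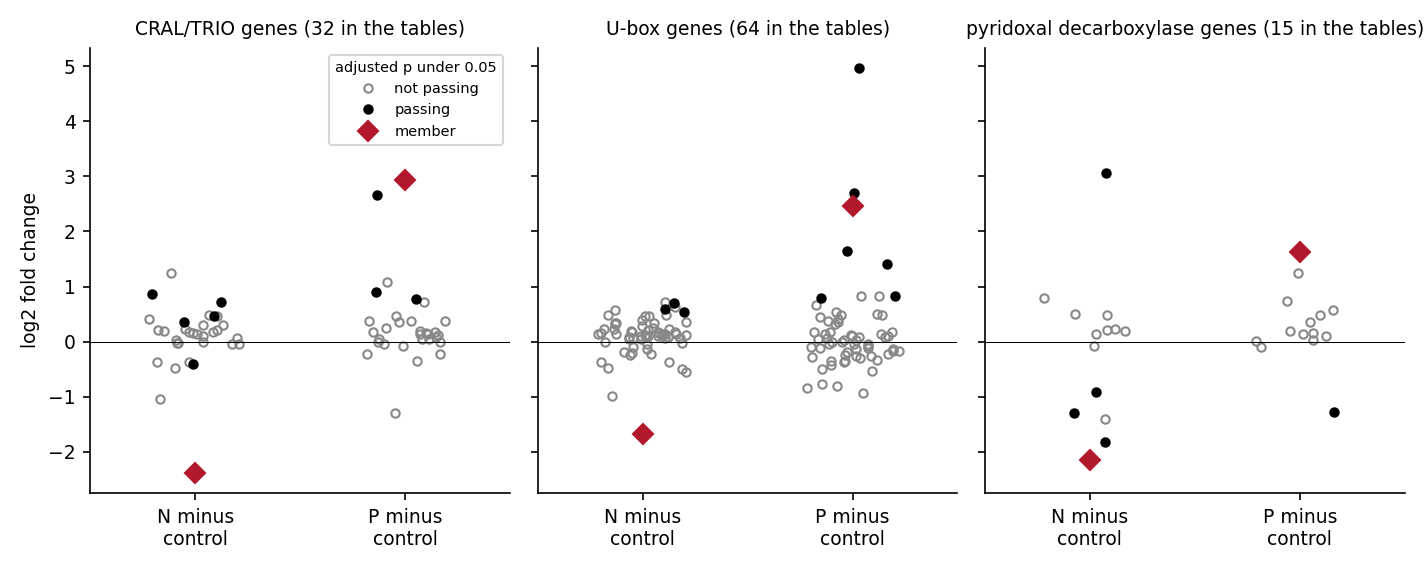
Log2 fold change with N and with P deficiency against control for each tested gene with a CRAL/TRIO, U-box or pyridoxal-dependent decarboxylase domain; filled circles passed at an adjusted p under 0.05, open circles did not, and diamonds are the members. With N deficiency the members, which were chosen for this direction, lie at -2.38, -1.68 and -2.14. Among relatives, which were not, the lowest are -1.03, -0.98 and -1.82.

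Tryptophan decarboxylase makes tryptamine, the precursor of serotonin in plants, from the end product of the shikimate and anthranilate route. Of 8 genes with tryptophan synthesis domains none passed with N deficiency (limma; 1 lower with edgeR and TMM scaling, 0 with DESeq2, and 1 higher and 1 lower at an unadjusted p under 0.05). Among all genes 12.8% passed with N and 6.28% with P deficiency, in either direction. With P deficiency the indole-3-glycerol phosphate synthase gene Os08g0320400 rose by 0.45 ± 0.104 (adjusted p = 0.0471 by limma and Benjamini-Hochberg). The tryptophan synthase alpha chain gene Os03g0797000 fell by 0.42 (adjusted p = 0.0496 by limma and Benjamini-Hochberg). Both calls were lost without any 1 of the control libraries or P library 1 or 2 (up to 0.155 and 0.157). With all libraries kept, that of Os08g0320400 was lost with a pseudocount of 0.1 and with a block for replicate number. That of Os03g0797000 was lost with edgeR under both scalings, with no filter on low values and with the block.

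A list of 7 loci was written from general knowledge as the serotonin route, and 5 were kept because their deposited domain fits an enzyme of it. It holds Os08g0140500, Os08g0140300 and Os07g0437500 as decarboxylases, Os12g0268000 with a cytochrome P450 domain and Os08g0102000 with an acetyltransferase domain. The tables name none of them. With the member Os08g0140500 set aside, only Os08g0140300 passed against control, and only with N deficiency (limma, edgeR and DESeq2). At an unadjusted p under 0.05, and with Os08g0140300 counted, 2 were lower with N and 1 higher with P deficiency. The share of all genes that passed in either direction was 12.8% with N and 6.28% with P deficiency. Os07g0437500 stood at 423 ± 21.2 normalised reads in control and 504 ± 113 with N deficiency, and at 403 ± 22.9 and 625 ± 198 in the P table, and passed with P deficiency only without P library 3 (adjusted p = 0.00467 by limma and Benjamini-Hochberg). The P450 gene Os12g0268000 had 38.04 ± 4.95 in control and 23.8 ± 3.02 with N deficiency, and 36.3 ± 4.48 and 49.3 ± 3.57 in the P table. Its N libraries lay below and its P libraries above the control libraries, and N minus P deficiency was -1.09 ± 0.214 (adjusted p = 0.021 by limma and Benjamini-Hochberg). That call was lost without any 1 N library or without P library 1 or 2 (up to 0.074).

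The members share little in position. Os02g0668500 lies on chromosome 2, 27137230 to 27138285, on the minus strand, and Os02g0822900 on chromosome 2, 35334956 to 35340821, on the plus strand, 8.20 Mb away. Os08g0140500 lies on chromosome 8, 2268901 to 2270472, on the minus strand. The genome build of these coordinates is not named in the labels or the tables. The models of Os02g0668500 (1056 bases) and Os08g0140500 (1572 bases) fill their whole span, so they hold no intron, and their lengths are multiples of 3, as where a model holds coding sequence only. Of 29878 protein-coding models, 11% have both properties. The model of Os02g0822900 has 3070 bases over a span of 5866, so it holds introns. No other gene model in the tables overlaps a member.

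Few of the genes beside the members were called, as among genes at large. Of the 12 nearest models, 2 on each side of each member, 1 passed with N deficiency and none with P deficiency (limma; 0 also with edgeR, with DESeq2 and at an unadjusted p under 0.05). The one was Os08g0140300. Over all genes tested, 12.8% were called with N and 6.28% with P deficiency in either direction. With 12 models, these counts do not tell neighbours from other genes. Os02g0668900, Os02g0823050 and the model on chromosome 8, 2238153 to 2239683, had at most 7, 4 and 9 reads per library, few for a call. Os02g0668400, with a tRNA pseudouridine synthase domain, ends 548 bases from Os02g0668500 and had log2 changes of 0.0028 ± 0.166 with N and 0.22 ± 0.131 with P deficiency. Os02g0823000, with a signal peptide peptidase domain, starts 930 bases from Os02g0822900 and had -0.12 ± 0.142 and -0.28 ± 0.188. Log2 changes with P deficiency ran from -0.34 to 0.64 over the 12, the highest being that of Os02g0668900 (SE 0.80).

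**Figure D5:**
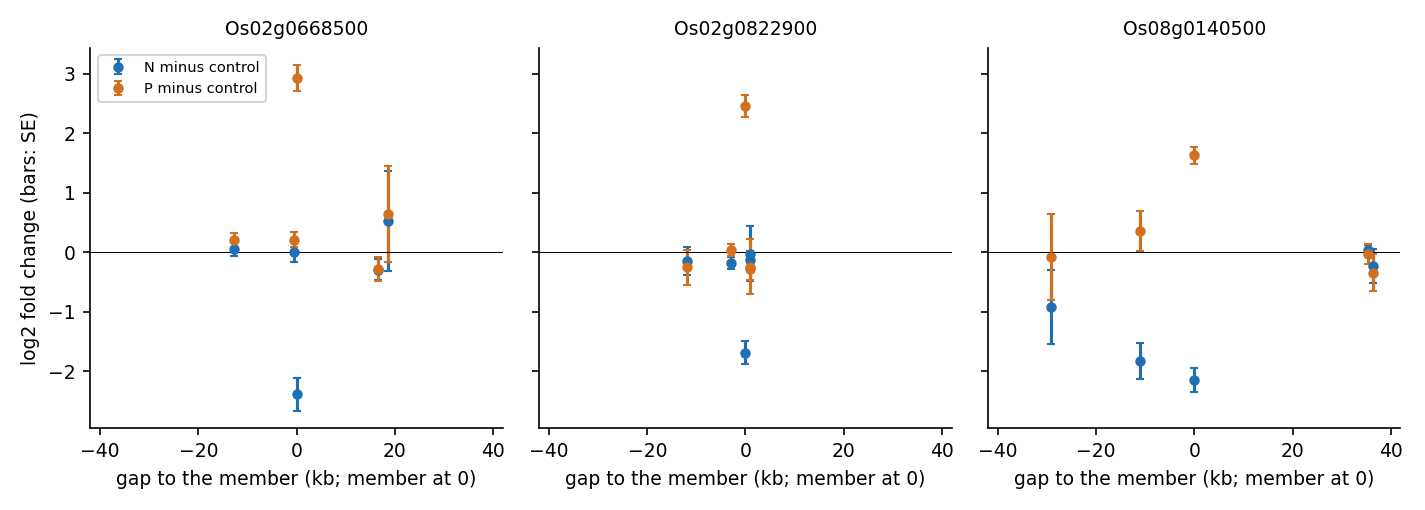
Log2 fold change with N deficiency (blue) and P deficiency (orange) against control, with SE bars, for each member (at 0) and the 2 nearest gene models on either side, by the gap between models in kb. The members, chosen for a rise with P deficiency, reach 2.93, 2.46 and 1.63 there. The neighbours reach at most 0.64, in Os02g0668900, a gene of at most 7 reads per library (SE 0.80).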

How the data were processed

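Root RNA of 9 libraries (TruSeq RNA kit, per the labels' protocols) was given in 2 deposited tables, N deficiency and P deficiency each with the 3 control libraries in common. The submitters' processing notes list HISAT2 2.0.5 and, although the samples are rice, hg38 as the build. No source used here gives the counter, strand setting, rice annotation or size factor method. Library columns hold a normalised signal: the deposited values are whole reads over a factor of the library, with other factors in the other table. Whole reads came back for 100% of values within 0.001, and 0 control reads differed between tables over 34285 shared genes. The log2 fold changes, p-values and adjusted p-values in the deposited tables are the authors' own, and only their log2 fold changes are quoted. Gene model length in bases, the other value used, was taken as deposited by the authors.

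Values were tested as log2(value + 1) in limma 3.58.1 under R 4.3.3, with the variance prior following mean level, for genes with a mean of at least 1 in 1 of the groups compared, with Benjamini-Hochberg adjustment over all genes tested and a threshold of 0.05. N against P deficiency was fitted to those reads after 1 median-of-ratios scaling of the 9 libraries. With the added 1, log2 fold changes of genes with few reads come out too small. The limma fits within each table were tried on simulated counts, drawn with a single dispersion and independent libraries. The fit of N against P deficiency, edgeR and DESeq2 were not tried in this way. Total reads on genes per library set the precision, and counting intervals (95%, exact) and the floor of 3 reads cover counting error only.

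Members, gene lists and tests were chosen with earlier results of these data known. Named genes are the members, up to 4 passing genes per list and comparison by size, the serotonin list, the 2 nearest models on each side, the 3 closest profiles and the next 3 genes with the opposite pattern. The split of U-box genes by a kinase domain and the divergent CRAL/TRIO genes were taken up after the tables were seen. No member has an entry by locus ID in the RefSeq gene table of assembly ASM3414082v1, and no sequence is shown. Alternatives were edgeR 4.0.16 with 2 scalings, DESeq2 1.42.0, a pseudocount of 0.1, no filter or a filter at 10, a block for replicate number, a single fit to the 9 libraries, and leaving out each library in turn.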

Additional observations from a re-analysis of the deposited data

How the results depend on the processing

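The log2 fold changes of the 3 members kept their sign, which the choice of members fixes, and stayed within 1 SD of the replicates under each alternative run. With 1 library left out they ranged from -2.66 to -2.16, -1.84 to -1.52 and -2.30 to -2.03 with N deficiency for Os02g0668500, Os02g0822900 and Os08g0140500, from 2.74 to 3.16, 2.33 to 2.65 and 1.48 to 1.74 with P deficiency, and from -5.59 to -5.14, -4.34 to -3.98 and -3.87 to -3.68 in N against P deficiency. Counts of called genes moved more. With 1 library left out, they ranged from 2622 to 3710 with N deficiency (4194 with all), from 696 to 3384 with P deficiency (2047 with all, 3384 without P library 3), from 692 to 1575 in N against P deficiency (1247 with all), and from 13 to 45 for lower with N and higher with P (34 with all). The libraries that moved a count by over 1.5 times were control 1 (2749), control 2 (2633) and N 3 (2622) with N deficiency. With P deficiency they were control 1, 2 and 3 (696, 753 and 1202) and P 1, 2 and 3 (827, 934 and 3384), and in N against P deficiency N 1 (740), N 3 (692) and P 2 (754). DESeq2 called 3256 with P deficiency, 2267 in N against P deficiency and 53 in the opposite pattern. The cause was not tested, though a fit with fewer libraries also has less power.

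Deviations from the group mean correlated from -0.10 to 0.37 between same-numbered libraries, with 6 of 9 over 0.1. They ran from 0.19 to 0.37 for numbers 2 and 3 and from -0.10 to 0.04 for number 1. Between different numbers they ran from -0.39 to 0.24, and in 12 of 18 looks a library correlated best with its own number. What same-numbered libraries share was not tested, and the main fits carry no block. With the replicate block, 4661, 2106 and 1528 genes were called in the 3 comparisons and 41 in the opposite pattern. Without it these were 4194, 2047, 1247 and 34. The block ended 5 calls of named genes, at an adjusted p (limma, Benjamini-Hochberg) of 0.059 for Os03g0850700, 0.0568 for Os03g0219100 and 0.0507 for the U-box model on chromosome 8 with N deficiency, and of 0.051 for Os08g0320400 and 0.0767 for Os03g0797000 with P deficiency. Of 57 calls of named genes that are no members, 35 passed under each alternative run and 22 were lost under at least 1. Of 74 that did not pass, 6 passed under at least 1, and no call turned its direction. Few reads limit Os04g0561200, Os04g0584500 and Os10g0400500, among others, and among the members the N libraries of Os08g0140500.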
